A study of Mus musculus with 20 samples.

Results

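The cytosolic ribosomal proteins were followed in articular cartilage of mouse knees as a set of 53 genes, each read by its brightest probe. A probe belonged to the set when its annotated symbol was Rpl or Rps with a number, with or without a final a, l or x, or was Rplp0, Rplp1, Rplp2 or Rpsa, and when its detection P-value was below 0.05 on at least 3 of the 20 arrays. Of the 59 genes with such a symbol on the array, 53 passed with 73 probes, out of 23148 tested probes and 12310 tested genes in the series. Rpl14, Rpl17, Rpl39l, Rpl6, Rps20 and Rps23 did not pass the detection rule and have no value here, and genes such as Rpl10, Rpl11 and Rps27 were not analysed here. The 53 members comprise 27 proteins of the large subunit, 20 of the small subunit, the 3 stalk genes Rplp0, Rplp1 and Rplp2, and the 3 paralogues Rpl3l, Rps27l and Rps4l.

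Male mice in 4 groups were compared: Dio2-/- Run (6 samples), Dio2-/- NoRun (3), wild-type Run (8) and wild-type NoRun (3). All mice were 4 to 6 months old on a C57Bl/6 background, and the Dio2-/- mice, which lack the deiodinase that activates thyroid hormone in tissues, were in backcross generation 6. Run mice had been made to run on a treadmill for 3 weeks, 1 hour a day on 5 days a week, at 11 m/min and an incline of 5 degrees, and NoRun mice had not. Each sample pooled the micro-dissected left-knee cartilage of 2 mice, so P-values measure the spread between pools. The wild-type mice are described both as purchased and as littermates of the Dio2-/- mice, so supplier or litter and genotype cannot be told apart.

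Ribosomal proteins form, with ribosomal RNA, the 2 subunits of the ribosome: the small subunit reads the mRNA and the large subunit joins the amino acids. Their genes are among the most strongly transcribed in any growing or secreting cell, chondrocytes included, and are kept in close proportion to each other. Most of their mRNAs open with a run of pyrimidines, the terminal oligopyrimidine motif, through which mTOR signalling sets their translation, so their mRNA level and the rate at which they are translated can differ. Thyroid hormone and mechanical load are both known to act on protein synthesis.

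The pyrimidine run could be looked for in the RefSeq starts (GRCm38.p6) of 44 of the 53 members, which have 54 annotated starts. A C at the annotated start followed by 4 or more C or T was found at 14.8% of the members' starts and at 2.51% of all 32851 starts. The same motif opening within 5 bases of the start was found at 42.6% of members' starts and 18.3% of all, and a run of 8 or more C or T that opens with C within 40 bases of the start at 63% and 23.2%. This last, wider search was added after the place of the run of Rpl4, which is the first stretch shown, had been seen. Another 4 motifs were searched from 250 bases before to 50 after each start, on both strands: CCGGAAG was found in 38.9% of members' windows and 8.86% of all, AAGATGG in 13% and 6.34%, CACGTG in 13% and 7.15%, and TATAAA in 9.26% and 13.6%. The 4 stretches shown belong to members with small P-values in the comparisons that follow, and run from 40 bases before the annotated start to 15 after it, with capitals for runs of 8 or more pyrimidines, counted from their first C.
Rpl4, chr9:64173347-64173401, plus strand: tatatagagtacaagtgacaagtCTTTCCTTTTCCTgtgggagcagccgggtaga
Rps15a, chr7:118116133-118116187, minus strand: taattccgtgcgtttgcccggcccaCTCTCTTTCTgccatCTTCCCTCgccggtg
Rplp2, chr7:141447611-141447665, plus strand: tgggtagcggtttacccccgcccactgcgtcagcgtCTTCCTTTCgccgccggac
Rpl24, chr16:55966235-55966289, plus strand: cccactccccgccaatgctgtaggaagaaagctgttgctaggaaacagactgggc
No such run was found within 40 bases of the 1 annotated start of Rpl24, and whether its mRNA opens with one was not tested.

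Signals of the ribosomal protein probes were high and, in most samples, even. Within groups the SD of a member had a median of 0.133 on the log2 scale, against 0.284 over all tested probes. The brightest array values lay between 71724.8 and 73999.4, and 14 of the 53 members had a median intensity above 60000, a level chosen after the values had been seen. These 14, among them Rps2, Rplp1, Rps12, Rps29 and Rpl38, had a median SD of 0.051, against 0.153 for the other members. Whether their small spread comes from a signal near the top of the scanner's range was not tested. At the other end, Rpsa, the laminin receptor protein of the small subunit, passed the detection threshold on 4 of 20 arrays and its values carry little information. Many ribosomal protein genes have near-identical processed pseudogenes, and a probe can read both.

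**Figure D1:**
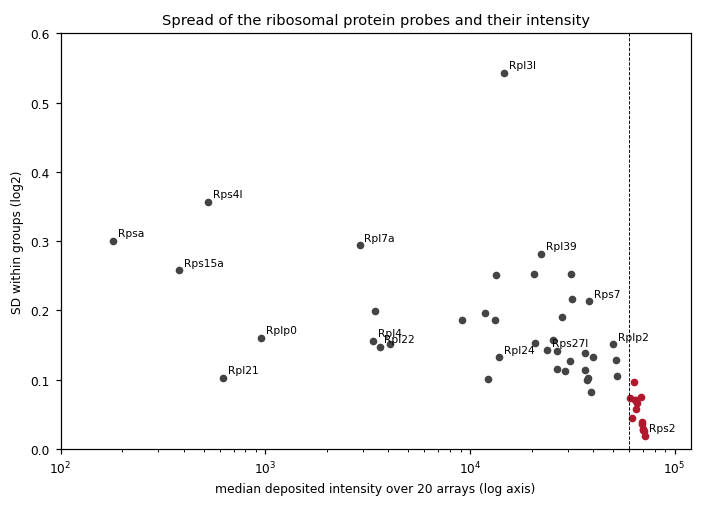
SD within groups (log2 scale, vertical axis) against the median deposited intensity over 20 arrays (log axis) for the 53 ribosomal protein genes; red points are the 14 genes above an intensity of 60000, marked by the dashed line. The red points all lie below an SD of 0.1, and Rpl3l stands alone with the highest SD, 0.54.

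Samples 16 and 24 stood apart. Dio2-/- NoRun 16 was dim, with member intensities at a median of 0.506 of each gene's median over arrays (0.765 for all probes). Dio2-/- Run 24 was next at 0.825 (1.01 for all probes). They also had the lowest mean of 17 neutrophil genes, 11.97 and 13.12 on the log2 scale against 14.03 to 14.37 in the other samples, and the 2 highest means of 23 skeletal muscle genes, 13.90 and 14.11, against 12.56 to 13.81 in the others. After quantile normalization the median deviation of the 53 members from their own means was -0.07 in both samples and between -0.04 and 0.06 in the others. The tissue held cartilage transcripts (15 of 20 listed genes tested, mean log2 value 9.0 to 10.06 over samples) together with muscle and marrow transcripts. The deleted gene gave no check of the labels: 1 Dio2 probe was detected on 7 of 9 Dio2-/- and 2 of 11 wild-type arrays near background, the other on none, and where they lie relative to the deletion was not examined. In such bulk samples fewer cells of a type and less RNA per cell cannot be told apart.

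**Figure D2:**
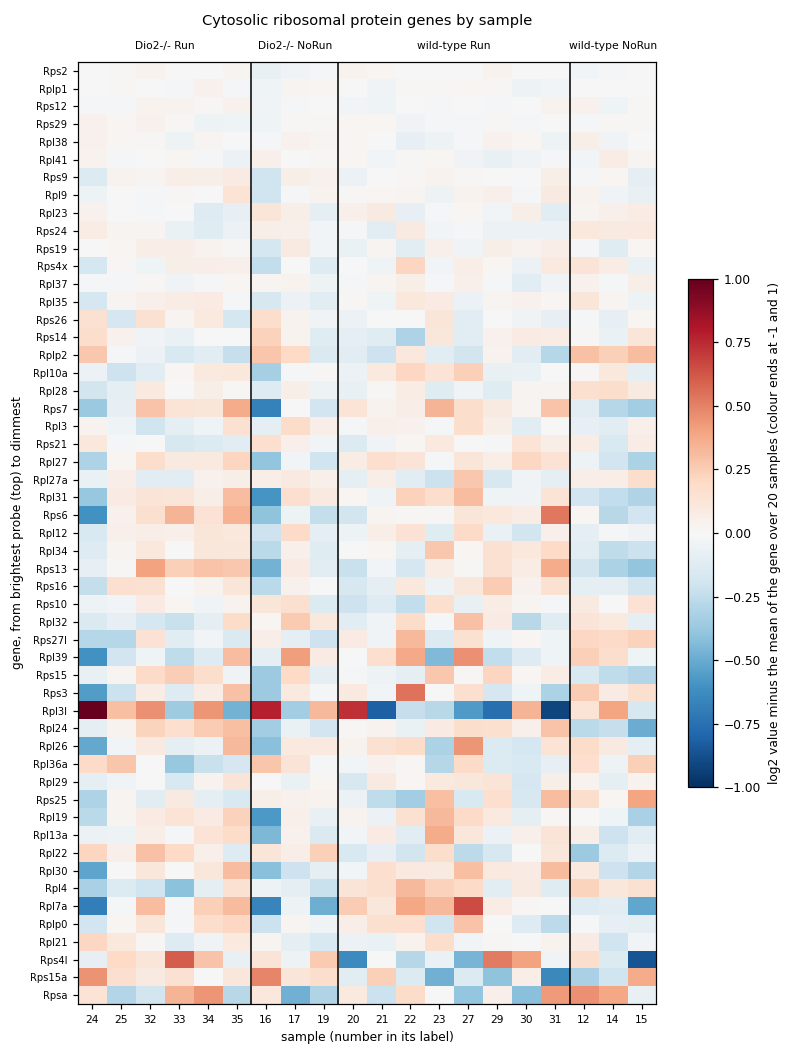
Log2 value of each ribosomal protein gene minus its mean over 20 samples (colour), with genes in rows from the brightest probe to the dimmest and samples in columns by group. The upper rows are nearly white in every group, Rpl3l varies most, and many genes are low in Dio2-/- NoRun 16.

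The first comparison asked whether ribosomal protein transcripts differ between Dio2-/- and wild-type cartilage, over both running groups. The set as a whole lay close to 0: the members had a median difference, Dio2-/- minus wild-type, of -0.01 on the log2 scale, with 24 genes above 0 and 29 below. No member passed an adjusted P of 0.05 in limma (0.00432% of all tested probes did). An unadjusted P below 0.05 was reached by 4 of 53 members, 7.55%, against 14.3% of all tested probes. For 51 of the 53 the 95% interval of the difference lay within 1.5-fold in either direction, as did 79.9% of all tested probes. This margin was chosen after the values had been seen. The 53 include the 14 members above an intensity of 60000, whose median SD within groups was 0.051. With arrays centred on their medians instead of quantile-normalized, 36 of the 53 lay above 0, at a median of 0.04 against 0.05 for all tested probes. Large subunit genes had a median of -0.03, small subunit genes 0.00 and the stalk genes 0.01.

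The Dio2-/- and wild-type samples overlapped for all 53 members, and 0.013% of all probes did not overlap. The 4 genes with an unadjusted P below 0.05 were Rpl4, Rps15a, Rpl22 and Rps27l. Rpl4, a core protein of the large subunit that lines the exit tunnel, had log2 values of 11.22, 11.46 and 11.78 (lowest, median, highest) in Dio2-/- Run and 11.58, 11.53 and 11.40 in Dio2-/- NoRun, against 11.51, 11.78 and 11.96 in wild-type Run and 11.85, 11.74 and 11.78 in wild-type NoRun. The genotypes overlapped: the highest Dio2-/- sample, Run 35, lay at the level of the wild-type samples. The mean was 11.48 ± 0.16 in Dio2-/- (SD, n = 9) and 11.75 ± 0.14 in wild-type (SD, n = 11), a difference of -0.28 (SE 0.079, 95% interval -0.45 to -0.12, adjusted P = 0.195 in limma). A two-sided exact permutation of genotype within Run and within NoRun gave P = 0.00113 for Rpl4, which was chosen for this test by its rank, as were the other genes given exact two-sided permutation P-values here. The difference was -0.28 in Run and -0.28 in NoRun.

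Rps15a, a protein of the small subunit read here by a dim probe, had values of 7.75, 7.87 and 8.19 in Dio2-/- Run and 8.23, 7.86 and 7.91 in Dio2-/- NoRun, against 7.09, 7.60 and 7.98 in wild-type Run and 7.42, 7.54 and 8.11 in wild-type NoRun. The ranges overlapped, with 3 wild-type samples inside the Dio2-/- range. The difference was 0.35 (SE 0.113, adjusted P = 0.237 in limma; exact permutation P = 0.00829). The 2 highest Dio2-/- samples are numbers 24 and 16, which also stand apart in muscle and neutrophil transcripts, and the part of those transcripts in the difference was not tested.

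Rpl22, a large subunit protein dispensable for translation in most mouse tissues, where Rpl22l1 can take its place, had a mean of 11.88 ± 0.13 in Dio2-/- (n = 9) and 11.66 ± 0.16 in wild-type (n = 11), a difference of 0.22 (SE 0.078, adjusted P = 0.252 in limma; exact permutation P = 0.00476). The samples spanned 11.63 to 12.05 in Dio2-/- and 11.40 to 11.94 in wild-type, so the groups overlapped over much of the range. Rpl22l1, outside the symbol rule, ran the other way, with means of 5.12 in Dio2-/- and 5.49 in wild-type and a difference of -0.37 (SE 0.122, adjusted P = 0.237), at a signal close to background. Rps27l, the p53-inducible paralogue of Rps27, had means of 14.42 ± 0.15 in Dio2-/- (n = 9) and 14.61 ± 0.15 in wild-type (n = 11), a difference of -0.20 (SE 0.076, adjusted P = 0.269 in limma; exact permutation P = 0.00768). The other members among the 10 smallest P-values were Rps4l, Rpl3l, Rps13, Rpl7a, Rpl30 and Rps3, with differences between -0.19 and 0.41. Without Dio2-/- Run 24 the difference was -0.09 for Rpl7a, -0.09 for Rps3 and -0.06 for Rpl30, against -0.19, -0.15 and -0.13 with all samples.

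**Figure D3:**
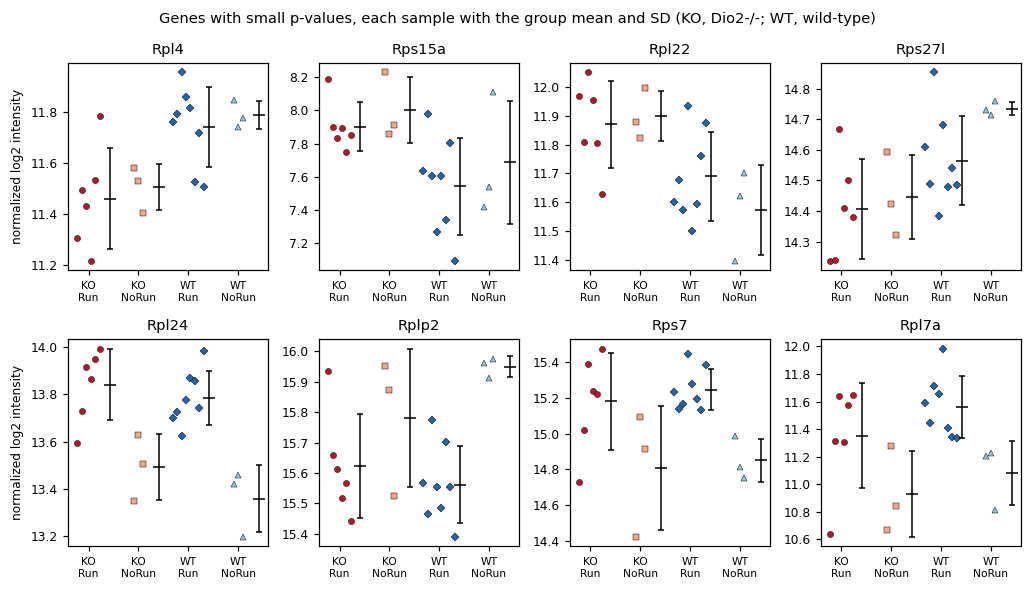
Normalized log2 intensity of 8 ribosomal protein genes with small P-values in each sample (points) by group, with the group mean and SD beside them (KO, Dio2-/-; WT, wild-type; 6, 3, 8 and 3 samples from left to right). Rpl4 lies lower in most KO samples, and all WT Run samples lie above the WT NoRun samples for Rpl24, while KO Run 24 lies below KO NoRun 17; no gene passed the adjusted test.

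Chip could be separated from genotype in part only, since chip 6 held 2 Dio2-/- Run and 1 wild-type Run sample and chip 4 held 1 Dio2-/- Run and 3 wild-type NoRun samples. Once chip entered the fit as a fixed block, the genotype difference came from chip 6 alone, which holds Dio2-/- Run 24. In that fit Rpl22 had a genotype difference of -0.05, with the sign turned, the same estimate as the chip 6 value that follows. Within chip 6 the mean of the 2 Dio2-/- Run samples minus wild-type Run was -0.46 for Rpl4, 0.78 for Rps15a, -0.05 for Rpl22 and -0.15 for Rps27l. On chip 4, where running differs too, Dio2-/- Run 35 minus the mean of the wild-type NoRun samples was -0.01 for Rpl4, 0.16 for Rps15a, 0.06 for Rpl22 and -0.35 for Rps27l. With array weights estimated from the 4 groups, an estimation that did not converge, these 4 of 53 members passed the adjusted test. Under the same weights 1439 of all 23148 tested probes passed it. With the other 2 sets of weights none of the 4 genes did.

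The genotypes were also compared within NoRun and within Run. In NoRun the median difference of the members was -0.02, and no member passed the adjusted test (0.0432% of all probes did). Rpl22, 1 of 53, had an unadjusted P below 0.05 (10.4% of all probes). This count ran between 0 and 4 when 1 sample was left out, with 4 without Dio2-/- NoRun 16 (7.25% of all probes). The Dio2-/- and wild-type samples did not overlap for 6 of 53 members, 1 higher and 5 lower in Dio2-/-, against 13.1% of all probes. In Run the median was 0.00, and no member passed the adjusted test (0% of all probes did). Rpl4 and Rps15a, 2 of 53, had an unadjusted P below 0.05 (8.17% of all probes). Without Dio2-/- Run 35 this count was 4 (11.9% of all probes). With all samples, no member was free of overlap in Run (0.112% of all probes).

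**Figure D4:**
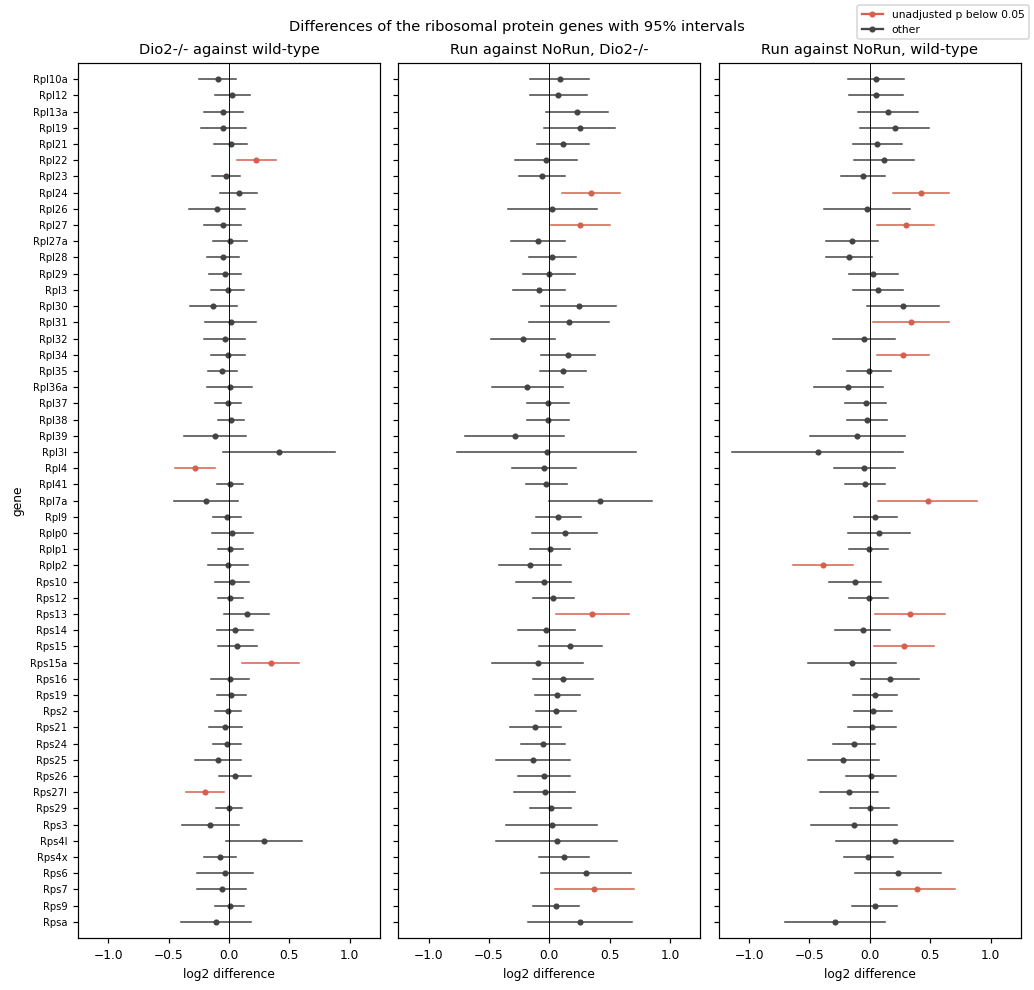
Log2 difference (points) with its 95% interval (lines) for the 53 ribosomal protein genes, for Dio2-/- against wild-type over 20 samples, Run against NoRun in Dio2-/- (6 against 3) and Run against NoRun in wild-type (8 against 3); red marks an unadjusted P below 0.05. Most genotype intervals are narrow and cross 0, and the running panels share Rpl24, Rpl27, Rps13 and Rps7 among the red genes, with intervals that are wider.

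The running comparisons asked what 3 weeks of treadmill running did to the set in each genotype. The 2 comparisons share no samples, but their limma P-values rest on a shared spread estimated over all 20 samples. In Dio2-/- the median difference, Run minus NoRun, was 0.03, no member passed the adjusted test (0.134% of all probes did), and 4 of 53, Rpl24, Rps13, Rps7 and Rpl27, had an unadjusted P below 0.05, all higher in Run (19.2% of all probes in either direction). In 1 of 53 the samples did not overlap (4.4% of all probes). In wild-type the median was 0.01, no member passed the adjusted test (0.194% of all probes did), and 9 of 53 had an unadjusted P below 0.05, 8 higher and 1 lower in Run (13.2% of all probes in either direction). The wild-type samples did not overlap for 10 of 53, 7 higher and 3 lower in Run, against 7.89% of all probes.

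Both counts changed when single samples were left out. In Dio2-/- the count of 4 at an unadjusted P below 0.05 became 1 without NoRun 16 (10.1% of all probes), 2 without Run 32 (15.3%), 8 without NoRun 17 (25.5%) and 8 without Run 24 (28.7%). In wild-type the count of 9 became 3 without NoRun 15 (8.64% of all probes) and 4 without NoRun 14 (11.4%). The 3 Dio2-/- NoRun samples were all on chip 5, which held no other sample, so in Dio2-/- running and chip cannot be told apart, nor can genotype and chip among NoRun samples.

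The running shift of the set depended on the scaling. With arrays centred on their medians instead of quantile-normalized, the members' median was 0.21 in Dio2-/- (0.04 for all tested probes), with 47 of 53 above 0 against 31 in the quantile-normalized values. In wild-type it was 0.14 (0.06 for all tested probes), with 44 of 53 above 0 against 27. The count of members with an unadjusted P below 0.05 was then 20 in Dio2-/-, all higher in Run (37.7%, against 20% of all probes). The quantile-normalized values gave 4 there. The wild-type count was 10, all higher in Run (13.9% of all probes), where the quantile-normalized values gave 9. No test was made for the set, and no single member passed the adjusted test under this scaling. The members' median deviation from their own means differed by chip within wild-type Run. It was -0.15 to 0.02 on chip 3, 0.09 to 0.17 on chip 1 and 0.14 on chip 6. In wild-type NoRun, all on chip 4, it was -0.21 to -0.03. The part of chip in the running shift was not tested.

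Markers of other cell types were described in the same comparisons, in the quantile-normalized values. In Dio2-/- all 17 neutrophil genes had positive differences, Run minus NoRun, with a median of 0.49. Their mean log2 value lay between 13.12 and 14.26 in Run and between 11.97 and 14.24 in NoRun. In wild-type 10 of the 17 were above 0 (median 0.05). T and NK cell genes were above 0 for 5 of 6 in Dio2-/- (median 0.83) and for 6 of 6 in wild-type (median 0.39). In wild-type 12 of 15 cartilage genes were below 0 (median -0.37), as were 11 of 15 in Dio2-/- (median -0.19). The wild-type cartilage mean lay between 9.0 and 9.71 in Run and between 9.84 and 9.86 in NoRun. Skeletal muscle genes were below 0 for 21 of 23 in wild-type (median -0.29) and for 15 of 23 in Dio2-/- (median -0.03). The part of these transcripts in the ribosomal protein values was not tested.

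Rpl24, a large subunit protein at the bridge between the subunits, had the smallest P of the members in both genotypes. Its values were 13.59, 13.89 and 13.99 (lowest, median, highest) in Dio2-/- Run against 13.35, 13.63 and 13.51 in Dio2-/- NoRun. They were 13.62, 13.76 and 13.98 in wild-type Run against 13.42, 13.46 and 13.20 in wild-type NoRun. In wild-type the 8 Run samples all lay above the 3 NoRun samples, and in Dio2-/- the ranges met, with Run 24 below NoRun 17. The difference was 0.35 in Dio2-/- (SE 0.115, 95% interval 0.11 to 0.59, adjusted P = 0.127; exact permutation P = 0.0238) and 0.42 in wild-type (SE 0.110, 0.19 to 0.65, adjusted P = 0.102; exact permutation P = 0.00606, the smallest that 8 against 3 can give). With no background correction (148 of all 23148 tested probes passed), or in the authors' own normalized table (177 passed), Rpl24 passed the adjusted test in wild-type. Without Dio2-/- Run 24, Rpl24, Rpl7a and Rps7, 3 of 53 members, passed it in Dio2-/-, as did 2547 of all 23148 tested probes.

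Rplp2, an acidic protein of the stalk that recruits elongation factors, was the one member lower in Run at an unadjusted P below 0.05. It had 15.39, 15.56 and 15.77 in wild-type Run against 15.96, 15.91 and 15.98 in wild-type NoRun, with no overlap, a difference of -0.39 (SE 0.119, adjusted P = 0.165 in limma; exact permutation P = 0.00606). In Dio2-/- it had 15.44, 15.59 and 15.94 in Run against 15.95, 15.87 and 15.52 in NoRun, which overlapped, a difference of -0.16 (exact permutation P = 0.321). The difference between the genotypes' responses, 0.23, had an adjusted P of 0.956 and was 0.10 without Dio2-/- NoRun 19. Its intensity in wild-type NoRun had a median of 67475, close to the brightest array values.

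Rps7 of the small subunit and the large subunit proteins Rpl34, Rpl27 and Rpl7a had all wild-type Run samples above all wild-type NoRun samples, with log2 differences of 0.39, 0.28, 0.30 and 0.48. Their adjusted P-values were 0.263, 0.249, 0.265 and 0.292 in limma, and in Dio2-/- the same differences were 0.37, 0.15, 0.26 and 0.42, with overlap. Without Dio2-/- NoRun 16 the Dio2-/- difference was 0.18 for Rps7, 0.16 for Rpl27 and 0.20 for Rps13, which had 0.36 with all samples. All 3 wild-type NoRun samples were on chip 4, so running and chip could be compared in wild-type only through the chip's 1 other sample, Dio2-/- Run 35. There it lay above the mean of the wild-type NoRun samples by 0.63 for Rpl24, 0.62 for Rps7, 0.57 for Rpl7a and 0.31 for Rpl34, and by -0.51 for Rplp2.

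The response to running was next compared between the genotypes. The members' median interaction, the running effect in Dio2-/- minus that in wild-type, was 0.02. No member passed the adjusted test (0% of all probes did), and none had an unadjusted P below 0.05 (5.13% of all probes). Without Dio2-/- NoRun 16 the count below 0.05 was 2 (6.27% of all probes). The interaction's 95% interval lay within 1.5-fold for 45 of 53 members, as did 21.9% of all tested probes. The 53 include the 14 members above an intensity of 60000, whose median SD within groups was 0.051. This comparison is the least precise, with a median SE of 0.160 (0.273 for all tested probes).

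Genes with several probes gave a check on the choice of the brightest one. There were 15 such members with 35 probes between them. For running the 20 dimmer probes had a median difference of 0.26 in Dio2-/- (0.03 for the brightest probes of the same genes) and of 0.19 in wild-type (0.03). Unadjusted P-values below 0.05 were reached by 5 of the 20 in Dio2-/- (19.2% of all tested probes) and by 6 of the 20 in wild-type (13.2%), and none passed the adjusted test. Rpl38 shows the contrast: its brightest probe, near the top of the scale, differed by -0.01 in Dio2-/- and by -0.02 in wild-type, and its dimmer probe by 0.41 (adjusted P = 0.115) and by 0.55 (adjusted P = 0.068). In the dimmer probe the Run samples lay between 10.78 and 11.19 in Dio2-/- against 10.25, 10.64 and 10.67 in NoRun, and between 10.68 and 11.12 in wild-type against 10.46, 10.41 and 10.17 in NoRun, with no overlap in either genotype. Not every dimmer probe was higher in Run. The dimmest tested Rps24 probe had 7.18 to 7.97 in wild-type Run against 7.94, 8.04 and 8.22 in NoRun. A flat brightest probe also occurred at lower signal, in Rpl29, with a median intensity of 12229.5. It had 13.41 to 13.70 in Dio2-/- Run against 13.57, 13.50 and 13.59 in NoRun. The dimmer Rpl29 probe had 11.63 to 12.54 against 11.37, 11.99 and 11.62. For genotype the 20 dimmer probes had a median of -0.04, and 4 of the 20 had an unadjusted P below 0.05 (14.3% of all tested probes). Which probe of a gene is nearer to its mRNA level was not tested.

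Among the paralogues, Rpl3l and Rps4l had the 2 largest SDs of all members within groups. Rpl3l, which replaces Rpl3 in striated muscle ribosomes, had an SD of 0.54 (Rps4l 0.357) and values of 13.42, 14.26 and 14.89 in Dio2-/- Run and 14.67, 13.54 and 14.21 in Dio2-/- NoRun, against 12.97, 13.47 and 14.62 in wild-type Run and 14.03, 14.29 and 13.73 in wild-type NoRun. The groups overlapped throughout, and the genotype difference was 0.41 (SE 0.224, 95% interval -0.05 to 0.88, adjusted P = 0.396). The skeletal muscle genes lay on the same side, with 21 of 23 above 0, a median genotype difference of 0.38 and 9 of 23 at an unadjusted P below 0.05 (14.3% of all tested probes). Their mean log2 value lay between 12.91 and 14.11 in Dio2-/- and between 12.56 and 13.81 in wild-type, and their part in the Rpl3l difference was not tested. Rpl3l ran with the mean of the 23 skeletal muscle genes over the 20 samples (Pearson r = 0.974, Spearman rho = 0.949, each with a permutation P of 1.0e-05, the smallest that 100000 resamples can give). Without the 2 samples farthest from the median, r was 0.964, and it was 0.985 within Dio2-/- Run (n = 6) and 0.974 within wild-type Run (n = 8). This 1 relation was chosen after the values had been seen. Rpl3 itself had a genotype difference of -0.01 (95% interval -0.15 to 0.13). Rps4l, a transcribed pseudogene in RefSeq, differed by 0.29 (SE 0.150) between the genotypes at a low signal, and its parent Rps4x by -0.08 (SE 0.064).

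**Figure D5:**
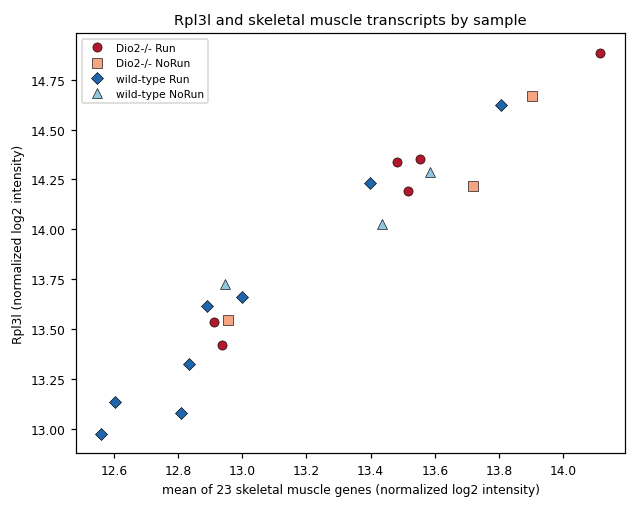
Normalized log2 intensity of Rpl3l (vertical axis) against the mean of 23 skeletal muscle genes (horizontal axis) in the 20 samples, marked by group. The points follow a line in every group, with r = 0.974 over all samples.

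The wider translation machinery was described by the same fits, in gene lists chosen with earlier results of these data known. No gene of the 5 lists passed the adjusted test in any comparison. For genotype, an unadjusted P below 0.05 was reached by 1 of 4 ribosomal proteins outside the symbol rule, 2 of 14 elongation factors and other pyrimidine-run mRNAs, 1 of 20 initiation factors, 5 of 41 ribosome biogenesis genes and 4 of 15 regulators, against 14.3% of all tested probes. Nop58, a core protein of the particles that methylate ribosomal RNA, had means of 12.15 in Dio2-/- and 12.57 in wild-type, a difference of -0.45 (SE 0.107, adjusted P = 0.158). Eif4ebp2, an mTOR target that restrains initiation, differed by -0.52 (SE 0.155, adjusted P = 0.213), Nap1l1 by -0.33 (adjusted P = 0.211) and Npm1, the nucleolar protein nucleophosmin, by -0.29 (adjusted P = 0.254). For running in Dio2-/- (19.2% of all tested probes) the counts in the same order were 1 of 4, 4 of 14, 1 of 20, 11 of 41 and 2 of 15. In wild-type (13.2% of all tested probes) they were 1 of 4, 2 of 14, 8 of 20, 6 of 41 and 3 of 15. Differences between these counts were not tested.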

How the data were processed

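Illumina MouseWG-6 v2 arrays had been hybridized with RNA of 20 pooled cartilage samples. The authors deposited probe intensities that were not normalized, with a detection P-value (p-value against the negative controls) for each, and a table of log2 values they had normalized, with a method not given in the sources used here. Per the study's methods, samples were repeated across chips and the repeat with fewer calls was discarded. GenomeStudio is named in the submitters' processing notes. Per the labels, samples were grouped by genotype and running.

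Background was estimated by way of the detection P-values, 16 was added as an offset, and arrays were quantile-normalized (nec function, limma 3.58.1 in R 4.3.3). All 23148 probes detected below 0.05 on at least 3 arrays were fitted, genotype with running as a covariate and the other contrasts from 4 group means, and P-values were adjusted over all of them by Benjamini-Hochberg. The fit was tested on simulated data. The number of arrays limits precision. Of 45281 probes, 34885 carry 1 symbol, 18 several and 10378 none listed. Array correlations lay between 0.913 and 0.993.

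The members, lists, tests and alternatives were chosen with earlier results of these data known. Named were the 10 members with the smallest genotype P, the 5 smallest of every other contrast, the 5 with the largest and smallest SD within groups, the 5 brightest and dimmest, paralogues with parents, and 3 genes of each translation list by genotype P. Genes given permutation tests, the intensity level of 60000, the fold margin, the genes with several probes described by name and the Rpl3l relation were chosen after the values had been seen. Alternatives covered normalization, detection filter, probe choice, chip, array weights, robust fitting and left-out samples.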

Additional observations from a re-analysis of the deposited data

Results flagged for a closer look

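Among the 29 named members, 58 groups of 6 or 8 samples were checked for a sample far from the others, and 3 were found, where chance flags about 1 in 20 groups. In Dio2-/- Run 24, Rpl7a was at 10.64 on the log2 scale, below the next sample at 11.31, and Rps15a was at 8.19, above the next at 7.9. In wild-type Run 23, Rpl21 was at 9.05, above the next at 8.91. Over all 53 members, 12 of 106 groups held such a sample, and Dio2-/- Run 24 was that sample for 6 genes. No interaction passed the adjusted test.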

How the results depend on the processing

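No paired analysis was possible because no sample number is shared between groups. Weighting arrays changed the most calls. With weights estimated from the 4 groups, as planned, the estimation did not converge and gave Dio2-/- NoRun 19 a weight of 6.24 and Dio2-/- NoRun 16 one of 0.158. Under these weights 4 members passed the adjusted test for genotype (Rpl4, Rps15a, Rpl22, Rps27l), 6 for genotype in NoRun, 5 for running in wild-type (Rpl24, Rpl31, Rpl34, Rplp2, Rps7) and 6 for running in Dio2-/-, while all called probes numbered 1439, 3374, 2071 and 5881. Both other estimates were tried after these calls had been seen. Weights from genotype and running alone called 2 members for running in wild-type (Rpl24, Rplp2), among 1037 probes called. They called 0 members in the other 5 comparisons. Gene-by-gene weights from the 4 groups called 5 members for running in wild-type, among 1903 probes called. They called 2 members for running in Dio2-/- (Rpl24, Rpl7a), among 1952 probes called, and 0 members elsewhere.

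Without pools 16 and 24, 3 members passed for running in wild-type (Rpl24, Rplp2, Rps7), among 910 probes that passed. Rpl24 alone, 1 member, passed there with no background correction (148 probes passed) and in the authors' table (177 probes passed). Leaving out 1 sample, members called ranged from 0 to 3 for running in Dio2-/- and stayed at 0 in the other comparisons. The 3, Rpl24, Rpl7a and Rps7, passed without Dio2-/- Run 24, where 2547 of all tested probes passed.

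The members' median moved under median centring to 0.040 for genotype, 0.063 for genotype in Run, 0.14 for running in wild-type, 0.21 for running in Dio2-/- and 0.064 for the interaction, where all probes moved to between -0.01 and 0.07. It was -0.046 for genotype and for genotype in Run and 0.113 for running in wild-type with chip as a fixed block, -0.033 for running in wild-type with cyclic loess and 0.045 with the mean of a gene's probes. The chip-block values for both genotype comparisons come from chip 6 alone, with 2 Dio2-/- Run samples and 1 wild-type Run sample. Leaving out 1 sample took the interaction's median to between -0.020 (without Dio2-/- NoRun 16) and 0.046. Chip as a fixed block could not be fitted for genotype in NoRun, running in Dio2-/- and the interaction, since chip 5 held the 3 Dio2-/- NoRun samples and no other.

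Signs turned for genotype with chip as a fixed block in Rpl22 (-0.046, the same estimate in Run) and Rps13 (-0.11), from chip 6 alone. For running in wild-type Rps4l was -0.0094 with weights from the 4 groups and -0.090 without wild-type NoRun 15. For running in Dio2-/-, Rpl3l was 0.21 with median centring, 0.0089 with cyclic loess, 0.036 in the authors' table, 0.049 and 0.035 with the added weights, 0.087 without pools 16 and 24, and 0.118, 0.240, 0.014 and 0.095 without Dio2-/- Run 35, NoRun 16, NoRun 19 or Run 33. Rps27l was 0.20 with median centring, 0.0062 in the authors' table, 0.066, 0.118 and 0.095 with weights from genotype and running, from the 4 groups and gene by gene, 0.067 without both pools and 0.034 without NoRun 16. Rps4l was -0.000176 with weights from the 4 groups, -0.022 without NoRun 17 and -0.025 without Run 33. The causes were not tested. Probes near the brightest array values and near background limit what these arrays can show.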
